A study of Mus musculus with 6 samples.

Results

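The cytokines interleukin-15, interleukin-18 and interleukin-33 were followed in a mouse cell line together with receptor chains and the soluble decoy of interleukin-18. The members are 7 genes, Il15, Il15ra, Il2rb, Il18, Il18bp, Il18rap and Il33, taken by gene symbol from tables of 14701 protein-coding genes. All 7 had a row in each of the 6 tables. RNA was sequenced from IEC 4.1, labelled as mouse intestinal epithelium, in 2 groups of 3 samples. The IFN gamma samples (replicates 1, 2 and 4) received interferon-gamma at 10 ng/ml for 6 h, and the Ctrl samples (replicates 2, 3 and 4) were left untreated. No genotype, allele or second agent is given in the labels, and the labels do not say that replicates were grown as separate cultures, so p-values may measure technical spread only. The comparison asks how these genes change in the line within 6 h of interferon-gamma.

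IL-15 is usually held on the surface of the cell that makes it by the IL-15 receptor alpha chain, and is shown from there to natural killer cells and CD8 T cells that carry the receptor beta chain (Il2rb) and the common gamma chain (Il2rg). IL-18 is made as an inactive precursor that caspase-1 cuts. It signals through a binding chain (Il18r1) and an accessory chain (Il18rap), and the secreted IL-18 binding protein (Il18bp) captures it. IL-33 is a nuclear alarmin of barrier and stromal cells that leaves damaged cells and acts on cells with the receptor ST2 (Il1rl1) and the accessory chain Il1rap.

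The libraries held 17490689 to 18678543 estimated counts each. The defining markers of intestinal epithelium went against the label: 8 of 12 such genes had a row, and together they reached 0.53 to 0.834 CPM (counts scaled for library depth and composition) in IFN gamma libraries and 0.738 to 1.12 CPM in Ctrl libraries. The 8 mesenchymal markers with a row summed to 5050 to 5430 CPM in IFN gamma libraries and 5130 to 5360 CPM in Ctrl libraries. Most of this came from Vim and Col1a1, while Lum had at most 0.22 CPM in any library and Thy1 had no row. Of the 7 mesenchymal markers tested, 2 were higher and 5 lower, against 19.9% and 18.1% of all genes tested. Of 18 natural killer and T cell markers, 5 had a row, with a sum of 0.824 to 1.1 CPM in IFN gamma libraries and 1.32 to 1.54 CPM in Ctrl libraries, and Cd3e, Ncr1 and Klrb1c had no row. Macrophage and dendritic cell markers with a row numbered 8 of 11 and summed to 21.2 to 22.5 CPM in IFN gamma libraries and 23.8 to 26.7 CPM in Ctrl libraries, mostly from Cd14. The sums did not overlap, and of the 3 tested genes 0 passed the threshold, or 1, as lower, with upper-quartile scaling or on total counts. Ptprc, the pan-leukocyte marker, had 0 counts in the IFN gamma libraries and 2 in the Ctrl libraries. Endothelial markers with a row, 3 of 6, summed to at most 0.53 CPM in any library. The tables list 673 genes with 0 counts throughout the IFN gamma group and 0 such genes for the Ctrl group, so a gene silent in untreated cells has no values here. In bulk RNA, fewer cells of a type and less RNA per cell cannot be told apart.

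With interferon-gamma, 6 of the 7 genes were tested and all 6 were higher at an adjusted p under 0.05. Il2rb and Il15ra passed the low-count filter only through their treated libraries, so their entry into the count depended on being high there. Over all 11423 genes tested, 38.1% passed this threshold, 19.9% as higher and 18.1% as lower. That balance moved with scaling, since 2278 genes were higher and 2069 lower here, but 1775 and 2823 with upper-quartile scaling and 1644 and 3122 on total counts. Il15, Il15ra, Il2rb, Il18bp and Il18rap, 5 of the 6, rose at least 2-fold, as did 4.03% of genes tested, and 1.99% of genes rose at least 4-fold, Il15 and Il15ra among them. The receptor chain Il15ra changed most, followed by its cytokine Il15 and the decoy Il18bp, each about 4-fold or more. The accessory chain Il18rap rose at a high level, Il2rb at a few counts per library, and Il33 rose least. Il18 itself had 5 to 13 counts per library and fell under the low-count filter.

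**Figure D1:**
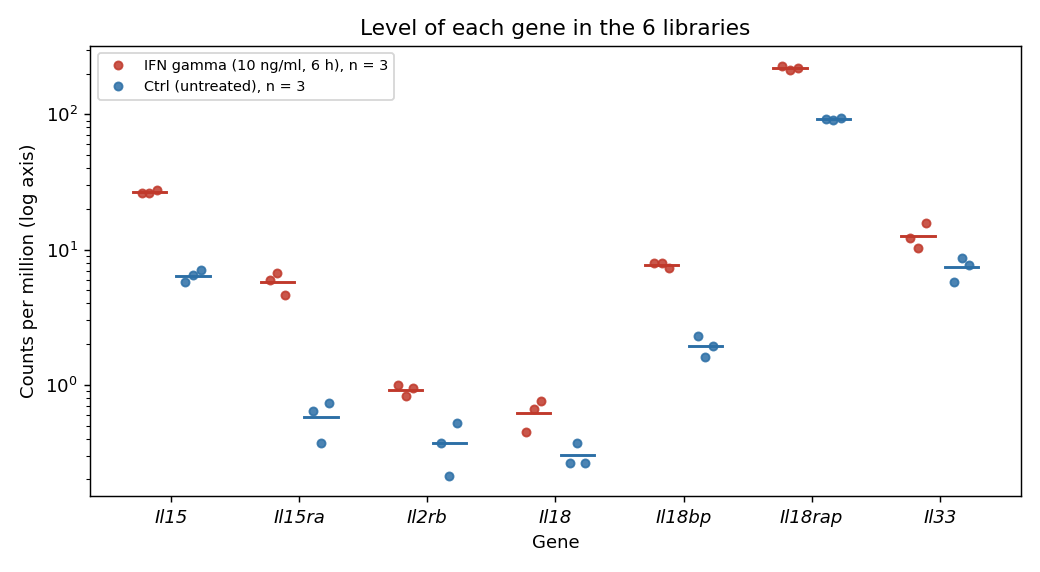
Level of each gene in CPM (y axis, log scale) in the 3 IFN gamma libraries (red, left of each pair) and the 3 Ctrl libraries (blue); points are libraries and bars are group means. Il18rap sits far above the others at 211 to 226 CPM in IFN gamma libraries.

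**Figure D2:**
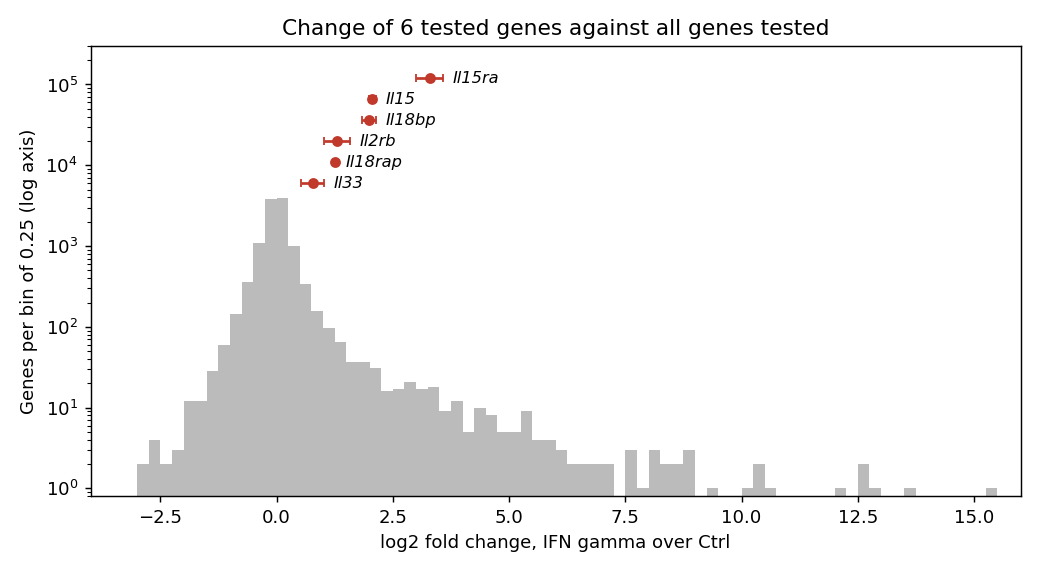
Histogram of the log2 fold change (IFN gamma over Ctrl, x axis) of all 11423 genes tested, with the number of genes per bin on a log y axis; red points mark the 6 tested genes with their SE between replicates, at heights chosen only to keep the names apart. Il15ra lies at 3.30 and Il33 at 0.78, right of the median of all genes at 0.009.

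Promoter windows were looked up for the 7 genes, since promoters of genes that respond to interferon-gamma often hold gamma-activated sites or interferon-stimulated response elements. The RefSeq promoter table used here (GRCm38.p6) gave 7 windows for 5 of the 7 genes, each 250 bases before and 50 bases after an annotated start. Il15 and Il2rb were not matched. TTCNNNGAA, the core of a gamma-activated site, occurred on neither strand of these 7 windows, against 8.3% of 32851 windows of the same length. GAAANNGAA, chosen after the windows had been seen, occurred in 8.56% of all windows and in both windows of Il15ra. With a further A at its 3′ end, the core of a response element that contains it, it occurred in none of the 7 and in 3.44% of all windows. These are matches of letters only, and sites outside the windows were not searched. The windows of Il15ra, Il18bp and Il18rap, the members with a window and a rise of at least 2-fold, are printed 5′ to 3′ up to 30 bases past the start, with capitals where GAAANNGAA or its reverse complement matched. They are chr2:11705043-11705322 (plus strand), chr2:11705462-11705741 (plus strand), chr7:102018203-102018482 (minus strand) and chr1:40515112-40515391 (plus strand).
Il15ra, upstream start: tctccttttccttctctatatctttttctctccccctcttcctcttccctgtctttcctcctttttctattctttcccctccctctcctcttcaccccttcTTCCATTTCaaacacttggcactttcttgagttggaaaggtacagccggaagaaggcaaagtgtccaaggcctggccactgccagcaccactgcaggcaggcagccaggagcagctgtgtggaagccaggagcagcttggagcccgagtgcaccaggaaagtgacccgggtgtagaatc
Il15ra, downstream start: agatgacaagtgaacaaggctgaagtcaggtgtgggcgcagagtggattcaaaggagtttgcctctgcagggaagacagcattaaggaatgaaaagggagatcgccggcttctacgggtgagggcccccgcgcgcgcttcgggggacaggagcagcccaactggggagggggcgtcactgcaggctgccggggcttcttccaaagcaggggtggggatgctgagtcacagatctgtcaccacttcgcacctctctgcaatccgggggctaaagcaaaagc
Il18bp: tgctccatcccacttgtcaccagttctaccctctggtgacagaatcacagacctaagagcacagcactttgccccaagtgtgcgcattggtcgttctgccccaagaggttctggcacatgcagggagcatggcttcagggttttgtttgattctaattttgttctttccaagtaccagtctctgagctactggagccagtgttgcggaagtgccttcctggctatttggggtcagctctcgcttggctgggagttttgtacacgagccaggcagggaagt
Il18rap: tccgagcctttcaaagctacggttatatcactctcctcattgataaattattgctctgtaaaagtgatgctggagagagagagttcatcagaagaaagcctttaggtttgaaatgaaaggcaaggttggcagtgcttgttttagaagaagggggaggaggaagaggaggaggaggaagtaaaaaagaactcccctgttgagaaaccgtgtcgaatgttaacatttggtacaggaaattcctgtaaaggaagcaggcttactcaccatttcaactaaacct
In the window of the downstream Il15ra start the match, GAAAGCGAA, lies at bases 281 to 289, just past the part printed, and in the upstream window it lies at bases 102 to 110 on the opposite strand.

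Il15 (NCBI Gene 16168, GRCm38.p6 chromosome 8, 82331624 to 82403252, minus strand) encodes the cytokine of the first axis. It had 26.4, 26.4 and 27.4 CPM in the IFN gamma libraries, against 5.79, 6.44 and 7.01 CPM in the Ctrl libraries. The groups were far apart and the treated libraries nearly equal. The mean was 26.7 ± 0.582 CPM with interferon-gamma and 6.42 ± 0.61 CPM without (SD, n = 3 each), a log2 fold change of 2.06 ± 0.08 (SE between replicates), or 4.16-fold (edgeR quasi-likelihood test, adjusted p = 4.5e-14). Of the genes tested, 1.88% had a larger log2 fold change.

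Il15ra (NCBI Gene 16169, chromosome 2, 11705172 to 11733985, plus strand), the chain that presents IL-15, was close to the detection limit in untreated cells. It had 107, 123 and 79 counts in the IFN gamma libraries, against 12, 7 and 14 counts in the Ctrl libraries. In CPM these were 5.95, 6.77 and 4.65 with interferon-gamma and 0.638, 0.373 and 0.738 without. The lowest treated library was thus several times the highest untreated one. The log2 fold change was 3.30 ± 0.29, or 9.85-fold (adjusted p = 1.85e-10), and 1.04% of the genes tested changed more in this direction. Only 2 of the 3 Ctrl libraries reached the 0.545 CPM that the low-count filter asked of 3 libraries, so Il15ra was tested by virtue of its treated libraries.

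Whether receptor chain and cytokine moved by the same amount was read from TPM (transcript abundance scaled for length and depth), the unit in which levels of different genes can be compared. The TPM of Il15ra was 0.149, 0.18 and 0.119 of that of Il15 in the IFN gamma libraries, against 0.0764, 0.0371 and 0.0934 in the Ctrl libraries. The groups did not overlap. On the log2 scale with a pseudocount of 0.1 TPM the ratio was -2.74 ± 0.29 with interferon-gamma and -3.76 ± 0.6 without (SD, n = 3 each), a difference of 1.02 ± 0.39 (SE; exact two-sided permutation test, p = 0.1, the smallest that 3 against 3 allows). With a pseudocount of 1 TPM, above most untreated values of Il15ra, the difference was 0.17 (exact p = 0.6), so its size depends on how low values are treated, and it was 0.68 without Ctrl replicate 3.

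Il2rb (NCBI Gene 16185, chromosome 15, 78479256 to 78511621, minus strand) encodes the signalling beta chain that natural killer and T cells use for IL-15 and IL-2. It had 18, 15 and 16 counts in the IFN gamma libraries, against 7, 4 and 10 counts in the Ctrl libraries. All of these are low, and the groups did not overlap. Mean CPM was 0.923 ± 0.0892 with interferon-gamma and 0.371 ± 0.157 without, a log2 fold change of 1.30 ± 0.29 (adjusted p = 0.00652). No Ctrl library reached the filter's level, so the gene was tested through its treated libraries, and leaving out single libraries gave 1.01 to 1.62. Of the 5 natural killer and T cell markers with a row, Ptprc had 0 counts in the IFN gamma libraries and 2 in the Ctrl libraries, and Prf1 had 1 in each group. Tbx21 had 0, 4 and 2 counts in the IFN gamma libraries, against 1, 1 and 0 in the Ctrl libraries, and Itgae had 6, 2 and 1 in the IFN gamma libraries, against 6, 2 and 4 in the Ctrl libraries. Eomes had 10, 14 and 11 counts in the IFN gamma libraries, against 21, 22 and 20 in the Ctrl libraries, and was lower (adjusted p = 0.04). That call was lost when any single library was left out. The part of lymphocyte RNA in the level of Il2rb was not tested. Il2rg, the partner chain, had 0.723, 0.66 and 0.412 CPM in the IFN gamma libraries, against 0.425, 0.639 and 0.896 CPM in the Ctrl libraries, with a log2 fold change of -0.12 (adjusted p = 0.828) that was 0.16 without Ctrl replicate 4 and 0.08 without IFN gamma replicate 4.

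**Figure D3:**
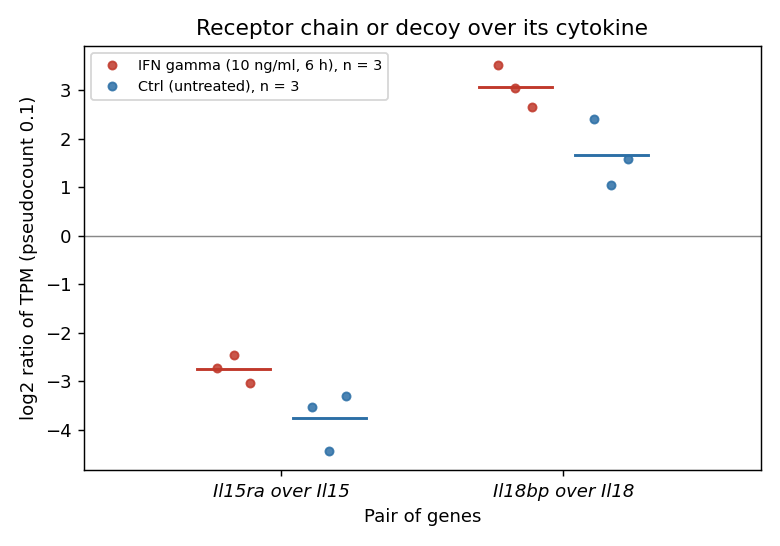
log2 ratio of TPM (y axis, pseudocount of 0.1) of Il15ra over Il15 and of Il18bp over Il18 in each IFN gamma library (red, left) and Ctrl library (blue); bars are group means. Both ratios are higher in the 3 IFN gamma libraries, with means of -2.74 and 3.08 with interferon-gamma, against -3.76 and 1.67 in Ctrl libraries.

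Il18bp (NCBI Gene 16068, chromosome 7, 102015074 to 102018232, minus strand) encodes the secreted decoy that binds IL-18. It had 7.9, 7.98 and 7.3 CPM in the IFN gamma libraries, against 2.29, 1.6 and 1.95 CPM in the Ctrl libraries. The treated libraries lay close together and well above the untreated ones. The means were 7.72 ± 0.373 CPM with interferon-gamma and 1.94 ± 0.344 CPM without (SD, n = 3 each), a log2 fold change of 1.99 ± 0.15, or 3.96-fold (adjusted p = 4.86e-10). In the GENCODE M21 annotation 80 of its 3026 exon bases lie across from exons of Numa1 on the other strand, and the labels do not say whether counting used strand. Numa1, named for that overlap, averaged 153 ± 15.2 CPM with interferon-gamma and 141 ± 6.92 CPM without (log2 0.12, adjusted p = 0.161). The Numa1 log2 fold change was 0.18 (adjusted p = 0.0122) without IFN gamma replicate 4.

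Il18 (NCBI Gene 16173, chromosome 9, 50554700 to 50581841, plus strand), the cytokine itself, was scarce. It had 8, 12 and 13 counts in the IFN gamma libraries, against 5, 7 and 5 counts in the Ctrl libraries. The groups were a single count apart in reads, and their TPM overlapped, at 0.8, 1.11 and 1.26 TPM with interferon-gamma and 0.45, 0.93 and 0.66 TPM without. The totals were 33 and 17 counts, a depth-scaled ratio of 2.07 (exact 95% binomial interval 1.12 to 3.95, which covers counting error only). Fitted with no low-count filter, Il18 had a log2 fold change of 1.03 (adjusted p = 0.0799). Only IFN gamma replicates 2 and 4, and 0 Ctrl libraries, reached the filter's 0.545 CPM. Il18 was therefore not tested when either of these replicates was left out. Where another library was left out, it was tested through its treated libraries. The adjusted p was then 0.0354 without IFN gamma replicate 1, the lowest treated library, and 0.0655 to 0.142 in the others. These fits all kept the highest treated libraries of Il18, so they do not show how its call depends on the choice of libraries.

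The TPM of Il18bp was 12.7, 8.99 and 6.71 times that of Il18 in the IFN gamma libraries, against 6.22, 2.17 and 3.29 times in the Ctrl libraries. The decoy's transcripts thus outnumbered those of the cytokine in every library, and the lowest treated ratio was close to the highest untreated one. The log2 ratio averaged 3.08 ± 0.43 with interferon-gamma and 1.67 ± 0.68 without (SD, n = 3 each), a difference of 1.4 ± 0.47 (SE; exact two-sided permutation test, p = 0.1, the smallest possible). It rests on the few counts of Il18 and ranged from 1.09 to 1.77 when single libraries were left out. A count of Il18 was worth 0.133 and 0.132 TPM in Ctrl replicates 3 and 4, but 0.09 to 0.1 TPM in the other libraries. From log2 CPM with a prior count of 2 the difference was 1.12.

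Il18rap (NCBI Gene 16174, chromosome 1, 40515362 to 40551707, plus strand), the accessory chain of the IL-18 receptor, was the most abundant of the 7. It had 4071, 3840 and 3735 counts in the IFN gamma libraries, against 1737, 1693 and 1786 counts in the Ctrl libraries. The replicates of each group were close, and the gap between groups was large. The means were 219 ± 7.54 CPM with interferon-gamma and 92.2 ± 2.01 CPM without, a log2 fold change of 1.25 ± 0.034, or 2.38-fold (adjusted p = 1.5e-14). In TPM it averaged 77.3 ± 4.51 with interferon-gamma and 34.9 ± 1.54 without, a level that 14% of genes exceeded in treated cells and 28.2% in untreated cells.

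The chain that binds IL-18, Il18r1, was nearly absent beside it. Il18r1 had 1, 4 and 0 counts in the IFN gamma libraries, against 2, 2 and 0 counts in the Ctrl libraries. The gene lies just before Il18rap on chromosome 1, at 40465552 to 40500854 on the same strand, in a row of IL-1 receptor family genes. In that row the decoy receptor Il1r2 had 0 counts with interferon-gamma and 1 without, and the IL-36 receptor gene Il1rl2 had 22 counts with interferon-gamma and 20 without. The IL-1 receptor Il1r1 had 37.3, 35.2 and 36.7 CPM in the IFN gamma libraries, against 40, 44.3 and 45.1 CPM in the Ctrl libraries, and fell by 0.25 on the log2 scale (SE 0.059, adjusted p = 0.00476). Expressed and nearly silent genes therefore alternate along the row, and Il1r1 and Il18rap moved in opposite directions under each scaling tried. The tables give counts per gene, so which transcripts of Il18rap carried the reads was not analysed here.

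**Figure D4:**
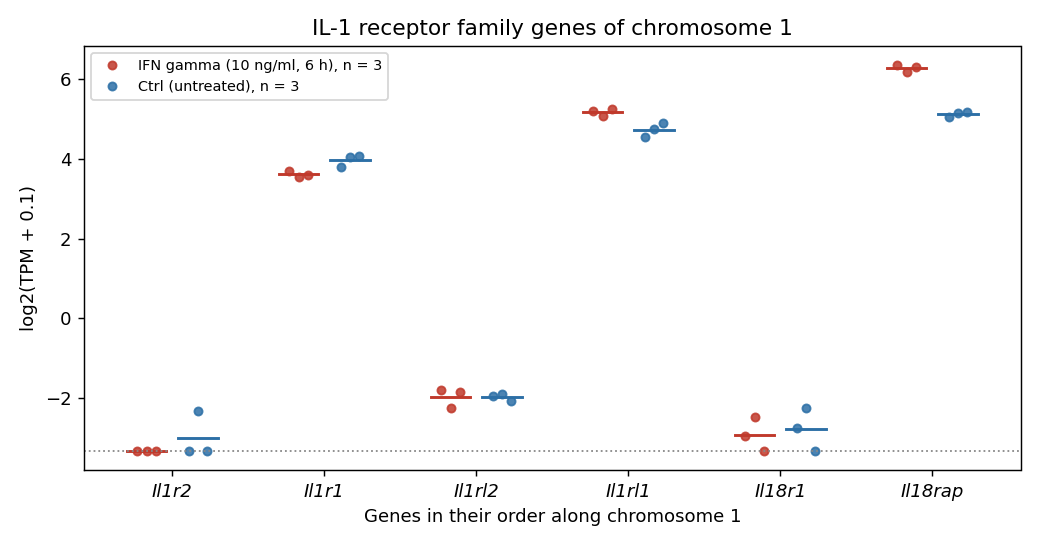
log2(TPM + 0.1) (y axis) of the 6 IL-1 receptor family genes in their order along chromosome 1, in IFN gamma libraries (red, left) and Ctrl libraries (blue); points are libraries, bars are group means and the dotted line marks 0 TPM. Il1r1, Il1rl1 and Il18rap stand high while Il1r2, Il1rl2 and Il18r1 lie near or just above the dotted line in both groups.

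Il33 (NCBI Gene 77125, chromosome 19, 29925113 to 29960718, plus strand) rose least of the tested members. It had 12.1, 10.2 and 15.8 CPM in the IFN gamma libraries, against 5.79, 8.68 and 7.7 CPM in the Ctrl libraries. The groups did not overlap, but the spread within each was wide, and IFN gamma replicate 4 was the highest library. The means were 12.7 ± 2.81 CPM with interferon-gamma and 7.39 ± 1.47 CPM without (SD, n = 3 each), a log2 fold change of 0.78 ± 0.25, or 1.71-fold (adjusted p = 0.000443). Leaving out single libraries gave 0.60 to 0.91, and 5.17% of the genes tested had a larger log2 fold change.

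Both chains of the IL-33 receptor were expressed in the line. Il1rl1, which encodes ST2 and also a soluble decoy form that gene counts do not separate, had 71.9, 69.7 and 78 CPM in the IFN gamma libraries, against 47.2, 50.5 and 56 CPM in the Ctrl libraries. All treated libraries lay above all untreated ones, and the log2 fold change was 0.51 ± 0.086 (adjusted p = 2.16e-06). The accessory chain Il1rap, shared with the IL-1 receptor, had 31.6, 30.4 and 32.1 CPM in the IFN gamma libraries, against 27.1, 29.3 and 29.1 CPM in the Ctrl libraries, and passed no threshold (log2 0.14, adjusted p = 0.107).

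Compared per length, the order of the 7 genes changed little. In IFN gamma libraries the mean TPM ran from Il18rap (77.3) through Il15 (41.2), Il18bp (9.54), Il33 (8.46), Il15ra (6.13) and Il18 (1.06) to Il2rb (0.43). In Ctrl libraries it ran from Il18rap (34.9) through Il15 (10.4), Il33 (5.34), Il18bp (2.33), Il15ra (0.717) and Il18 (0.68) to Il2rb (0.193). Neighbours whose libraries overlapped were Il18bp with Il33 and Il33 with Il15ra in treated cells, and Il15ra with Il18 in untreated cells. Il18bp averaged above Il33 in treated cells, where their libraries overlapped, and lay below it in untreated cells, where they did not.

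In the common gamma chain list, 7 of 11 tested genes rose and 1 fell, with a median log2 fold change of 0.17, against 0.009 over all genes tested. Of all genes tested, 19.9% rose and 18.1% fell. Stat3, a transcription factor that gamma chain cytokines and IL-6 activate, had 364, 346 and 344 CPM in the IFN gamma libraries, against 61.3, 67.2 and 62.1 CPM in the Ctrl libraries (log2 2.47, adjusted p = 3.05e-19). Jak3, the kinase bound to the gamma chain, had 8.95, 8.42 and 8.12 CPM in the IFN gamma libraries, against 4.68, 4.31 and 5.17 CPM in the Ctrl libraries (log2 0.85, adjusted p = 5.53e-06). The related cytokine Il7 averaged 17.5 ± 2.09 CPM with interferon-gamma and 12 ± 2.15 CPM without (log2 0.55, adjusted p = 0.000581), and Il4ra rose by 0.40 (adjusted p = 7.82e-06). The count of rises was 4 with upper-quartile scaling, on total counts and without Ctrl replicate 4, as Jak1, Stat5b and Grb2, all under 0.2 on the log2 scale, lost their calls. No row for Il2ra or Il7r was in the tables analysed here.

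In the list of IL-1 family receptors and signalling proteins, 4 of 14 tested genes rose, 1 fell and 9 passed no threshold, with a median log2 fold change of 0.07. These counts lie near the background, in which 38.1% of all genes tested passed, 19.9% as higher. Myd88, the adaptor below the IL-18, IL-33 and IL-1 receptors, had 87.7, 84.7 and 85 CPM in the IFN gamma libraries, against 24.1, 24.3 and 22.7 CPM in the Ctrl libraries (log2 1.86, adjusted p = 2.21e-16). The kinase Irak2 had 37.9, 40.3 and 41.3 CPM in the IFN gamma libraries, against 17.4, 19.6 and 17.9 CPM in the Ctrl libraries (log2 1.12, adjusted p = 3.44e-11). The fall was that of Il1r1. Of the other IL-1 family cytokines and antagonists listed, only Il1a and Il1rn had a row, and neither was tested. Il1a had 1 count in the IFN gamma libraries and 3 in the Ctrl libraries. The receptor antagonist Il1rn had 20 in the IFN gamma libraries and 26 in the Ctrl libraries.

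In the list of inflammasome and processing genes, 6 of 10 tested rose and 1, Card6, named after its values were seen, fell. Of all genes tested, 19.9% rose and 18.1% fell. The fall of Card6 (adjusted p = 0.0291) was lost without Ctrl replicate 3 or 4 or IFN gamma replicate 2 or 4, at adjusted p of 0.0506 to 0.162. The median log2 fold change was 0.32 over these genes (0.11 with no low-count filter) and 0.009 over all genes tested. Casp1, which cuts the IL-18 precursor, had 2.45, 2.64 and 3 CPM in the IFN gamma libraries, against 0.319, 0.16 and 0.316 CPM in the Ctrl libraries (log2 3.31, adjusted p = 6.95e-09). No Ctrl library reached the 0.545 CPM of the low-count filter. Casp1 was therefore tested through its treated libraries, and its entry into the count of rises depended on being high there. Casp4, the sensor of cytosolic lipopolysaccharide, averaged 51.5 ± 3.95 CPM with interferon-gamma and 4.63 ± 0.414 CPM without (log2 3.47, adjusted p = 5.99e-18). The pore protein gene Gsdmd averaged 21.1 ± 1.49 CPM with interferon-gamma and 9.32 ± 1.02 CPM without (log2 1.18, adjusted p = 1.71e-09). No row for Pycard, the inflammasome adaptor, was in the tables analysed here, and Nlrp3 was too low to be tested.

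In the list of transcription regulators, whose action on the 7 members was not tested, 9 of 12 tested genes rose. Rela, named after its values were seen, was the 1 that fell. The median log2 fold change was 0.73 (0.39 with no low-count filter), against 0.009 over all genes tested. Of all genes tested, 19.9% rose and 18.1% fell. The fall of Rela (-0.15, adjusted p = 0.0345) was lost without Ctrl replicate 2 or IFN gamma replicate 2 or 4, at adjusted p of 0.0755 to 0.167. Irf1, which in mouse is needed for normal IL-15 production, had 1120, 1150 and 1140 CPM in the IFN gamma libraries, against 101, 90.1 and 95.2 CPM in the Ctrl libraries (log2 3.58, adjusted p = 6.06e-22). Stat2 and Irf9, which act together as a complex, rose by 3.76 and 2.98 on the log2 scale (adjusted p = 1.98e-21 and 3.16e-18). Stat2 had estimated counts that were not whole in 3 libraries, while those of the 7 members were whole in all 6.

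**Figure D5:**
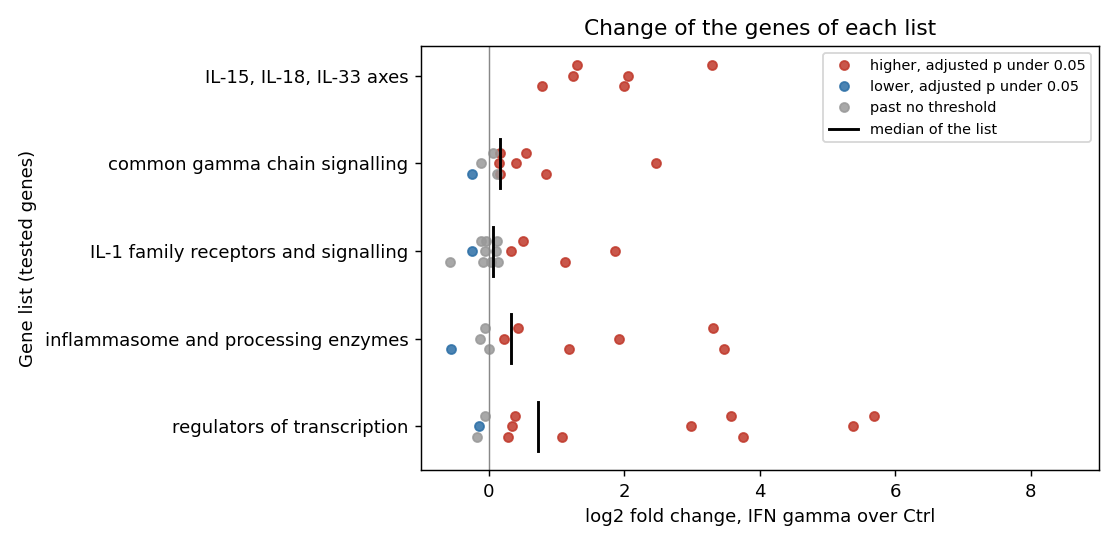
log2 fold change (IFN gamma over Ctrl, x axis) of each tested gene of the 5 lists (rows), coloured by its call at an adjusted p under 0.05; the black line is the median of a list, left out for the top row, and the vertical spread of points has no meaning. The 6 tested genes of the IL-15, IL-18 and IL-33 axes lie between 0.78 and 3.30, while the list of IL-1 family receptors and signalling proteins has its median at 0.07.

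The genes whose profile over the 6 libraries lay closest to each member were listed by the distance between log2 CPM values, each gene centred on its own mean. Closest to Il15 were the mucin Muc1 (distance 0.115), which averaged 8.42 CPM with interferon-gamma and 1.89 CPM without, then Tmem173, which encodes the DNA-sensing adaptor STING (0.135), and Parp11 (0.143). Closest to Il18rap were Mob3c (0.103), Steap2 (0.112) and Rnf114 (0.119), and among those closest to Il18bp were the small GTPase Rhob (0.188) and 1110038F14Rik (0.223). The other members had looser neighbours. For Il15ra these were the death ligand Tnfsf10 (0.32), Sp140 (0.544) and Apol11b (0.552), with 1.05, 9.03 and 1.2 CPM in IFN gamma libraries, against 0.0353, 1.18 and 0.053 CPM in Ctrl libraries. For Il2rb they were March3 (0.36), Gm9949 (0.412) and Ank2 (0.421), and for Il33 P2ry10b (0.287), Lpar4 (0.325) and Ly96 (0.351), of which Gm9949 and Ly96 lost their calls with DESeq2 and when some single libraries were left out. With 2 groups of 3 libraries the distance mainly orders genes by the size of their change, and the prior count draws low genes together.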

How the data were processed

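RNA from a column kit was sequenced on DNBSEQ, per the labels' protocols. The submitters' processing notes name HISAT and HISAT2 as tools and mm10 and GRCm38.p6 as builds, without roles, and no source used here names the program that counted reads. Each table holds estimated counts, which the authors deposited per gene and of which 6.8% to 7.37% were not whole, and TPM and FPKM values scaled by the authors, per the file headers. FPKM entered no test.

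Rounded counts went into edgeR 4.0.16 (R 4.3.3). The steps were filterByExpr (minimum count 10, which kept 11423 genes and left out 3278), TMM scaling, glmQLFit with robust=TRUE and glmQLFTest. P-values were adjusted by the Benjamini-Hochberg method across every tested gene, and the threshold was 0.05. CPM used effective library sizes. SEs came from the replicates' log2 CPM (prior count 2). No column belonged to other samples.

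Members, lists and tests were chosen with earlier results of these data known. Genes are named by a rule: the 7 members, up to 4 genes per list with the smallest adjusted p, 16 receptor, caspase and regulator genes, and the 3 nearest genes of each member that passed; 3 genes that the rule names are not reported here. Alternatives were DESeq2 1.42.0, limma-voom (limma 3.58.1), scaling by RLE, by upper quartiles or by total counts, a filter of 1 CPM in 3 samples or none, robust=FALSE, a replicate block and each library left out. Python 3.11.15, pandas 2.3.3, scipy 1.17.1 and matplotlib 3.10.9 made tables and figures.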

Additional observations from a re-analysis of the deposited data

How the results depend on the processing

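The 6 tested members stayed higher with interferon-gamma in each of the 15 alternative fits that tested them, and Il15, Il15ra, Il18bp, Il18rap and Il33 passed the threshold in each. Il2rb could not be tested with a filter of 1 CPM in 3 samples. Replicate numbers 2 and 4 are shared by the groups, but same-numbered libraries did not deviate together (correlations of deviations 0.128 and -0.0899), so the numbers are not read as pairs. With a replicate block the log2 fold change of Il2rb was 0.97 (adjusted p = 0.0899), the Il15ra to Il15 and Il18bp to Il18 differences were 0.67 and 0.87, and 2 regulators and 0 processing genes fell. The Il15ra to Il15 difference ran from 0.68 to 1.25 and the Il18bp to Il18 difference from 1.09 to 1.77 over left-out libraries. Scaling shifted the balance over all genes, from 2278 higher and 2069 lower to 1775 and 2823 with upper-quartile scaling and 1644 and 3122 on total counts, with medians of all genes at -0.044 and -0.062. With either scaling 4 gamma chain genes rose, and 2 genes fell in each of the IL-1 receptor, processing and regulator lists (1 each otherwise). With DESeq2, 0 processing genes fell. Over left-out libraries 4 to 7 gamma chain genes rose, 1 to 2 IL-1 receptor genes fell, and 0 to 2 genes fell in each of the processing and regulator lists. Il2rg ranged from -0.35 to 0.16 over left-out libraries and turned to 0.16 without Ctrl replicate 4 and 0.08 without IFN gamma replicate 4. The cause of these changes was not tested. Depth limits Il18 (at most 13 counts per library), Il2rb (at most 18) and untreated Il15ra (at most 14).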

Other observations

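The deposited TPM that 1 count was worth varied between libraries, most for the scarce members. It varied by 1.09-fold for Il33, 1.11-fold for Il15 and 1.12-fold for Il18rap over the 6 libraries. It varied by 1.48-fold for Il18 (0.09 to 0.133 TPM per count) and 1.51-fold for Il2rb (0.0213 to 0.0322 TPM per count). The TPM of Il18 overlapped between the groups while its counts did not.

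Card6, named after its values were seen, averaged 1.94 ± 0.176 CPM with interferon-gamma and 2.85 ± 0.59 CPM without (log2 -0.55, adjusted p = 0.0291), and it passed no threshold with DESeq2 (adjusted p = 0.101). Eomes, a transcription factor of natural killer and T cells, was the natural killer and T cell marker with a test. It averaged 0.658 ± 0.108 CPM with interferon-gamma and 1.11 ± 0.0585 CPM without (log2 -0.75, adjusted p = 0.04), and it passed no threshold when any single library was left out.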
